A study of Homo sapiens with 16 samples.

Results

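Small nucleolar RNA host transcripts are long noncoding RNAs whose introns carry small guide RNAs. They were taken as all rows with a gene name of the form SNHG followed by a number, together with GAS5, ZFAS1 and DANCR, which made 25 of the 16324 genes in both of the authors' deposited tables. All 25 are annotated there as long noncoding RNA, and, being listed, they had passed any filter on low counts that the authors used. Hosts outside the tables are not analysed here. The tables come from RIP-seq, in which RNA that stays bound to a tagged protein is recovered on beads and sequenced. The cells, UM-SCC-1 by their label, are a long-cultured line from a squamous carcinoma of the head and neck, and carried lentiviral Strep-ALKBH5, Strep-RBM33 or the empty Strep-Vec-1 after puromycin selection. ALKBH5 removes the methyl mark m6A from RNA, and RBM33 is an RNA-binding protein. The series holds 3 StrepTactin-XT pull-down and 3 input libraries for Strep-ALKBH5, 2 and 2 for Strep-RBM33, and 3 and 3 for Strep-Vec-1. The baits were expressed from a virus beside the cells' own genes, and nothing in the labels says that replicates were separate cultures. The p-values may then measure only the spread between libraries of one culture.

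The files give 1 comparison for each bait, labelled siCtrl, which lists for each gene the log2 fold change, its abundance as average log2 CPM (read counts scaled to library size), F and the p-values. They hold no value per library, so depth and replicate spread are unknown here. Neither table states which groups were set against each other or which way the ratio runs, and whether they share libraries is not stated either. Values are therefore called positive or negative as the authors' deposited tables give them, and no sign is read as more or less RNA in the pull-down. The mRNA of each bait was positive in its own comparison, at 1.28 for ALKBH5 (adjusted p = 0.00158) and 3.41 for RBM33 (adjusted p = 5.14e-05) in the authors' deposited tables. RBM33 mRNA was also positive in the authors' deposited table on ALKBH5, at 1.17 (adjusted p = 7.1e-06), while ALKBH5 mRNA had -0.21 in that on RBM33 (adjusted p = 0.245). A gene is said to be called where the authors' adjusted p, from the F test of edgeR over all genes of a table, was under 0.05. The error given with a log2 fold change is the standard error implied by F, that is, the size of the log2 fold change divided by the square root of F. Reads of a host transcript and of an antisense partner can be mixed, because the strand setting of the counting is not given in the sources used here.

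The cell type label was checked against marker genes. Of the markers of squamous epithelium, CDH1 had an average log2 CPM of 0.60 and ITGB4 of 1.02 in the authors' deposited table on ALKBH5, and 0.33 and 1.65 in that on RBM33. The keratins KRT5, KRT14, KRT17 and KRT6A, as well as TP63, SFN and DSG3, were in neither table. Of 4 genes known from neurofilaments or embryonic kidney, NEFL and NEFM had an average log2 CPM of 8.10 and 7.72 in the authors' deposited table on ALKBH5 and of 7.42 and 7.18 in that on RBM33. PAX2 and LHX1 were low, at 1.83 and 1.79 for ALKBH5 and 1.85 and 0.72 for RBM33 by the authors' deposited tables. The squamous markers thus go against the label, no other cell type is assigned, and what they mean for the host transcripts was not tested.

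Most small nucleolar RNAs of vertebrates are cut out of introns after splicing. Box C/D RNAs guide ribose methylation and box H/ACA RNAs guide pseudouridylation, mainly of ribosomal RNA, while the related small Cajal body RNAs act on spliceosomal RNAs. The spliced exons that remain usually code for no conserved protein. They are exported, engage ribosomes and are removed by nonsense-mediated decay, and several are abundant in growing cells. Many host genes begin with a terminal oligopyrimidine (TOP) tract, the C and T run that also opens ribosomal protein mRNAs and places them under mTOR control. RefSeq (GRCh38.p14) places 20 H/ACA, 36 C/D and 4 Cajal body RNAs inside the 25 hosts. Its gene list gives no strand, so position alone was used. By these guides, 4 hosts carry a Cajal body RNA, 9 carry H/ACA RNAs only, 10 carry C/D RNAs only, and SNHG12 and GAS5 carry both H/ACA and C/D RNAs.

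Some of these genes have such a tract at their listed start. RefSeq promoter windows were matched to 23 of the 25 hosts, all except SNHG6 and SNHG15. Shown are 60 bases on the strand of the gene, in which base 21 is the listed start, and capitals mark the unbroken run of C and T that opens there. The first 6 are the hosts whose start is a C followed by at least 4 pyrimidines, the motif searched here, at that position and on that strand only.
SNHG4 (GRCh38.p14, chr5:139274081-139274140, plus strand): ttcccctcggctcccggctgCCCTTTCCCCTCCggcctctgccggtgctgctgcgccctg
SNHG12 (chr1:28581834-28581893, minus strand): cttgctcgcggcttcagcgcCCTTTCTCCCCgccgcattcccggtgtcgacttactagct
SNHG32 (chr6:31834896-31834955, plus strand): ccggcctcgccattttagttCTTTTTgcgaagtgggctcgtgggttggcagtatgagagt
SNHG19 (chr16:2155319-2155378, minus strand): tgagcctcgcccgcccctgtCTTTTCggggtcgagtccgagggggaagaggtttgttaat
ZFAS1 (chr20:49278622-49278681, plus strand): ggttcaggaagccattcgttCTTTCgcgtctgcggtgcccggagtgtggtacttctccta
SNHG5 (chr6:85678694-85678753, minus strand): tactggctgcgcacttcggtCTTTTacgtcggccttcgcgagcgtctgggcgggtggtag
The next 4 belong to the hosts with the highest values in the authors' deposited table on ALKBH5, and open with a purine or, in SNHG26, with a run that is shorter than the motif.
SNHG22 (chr18:49814003-49814062, plus strand): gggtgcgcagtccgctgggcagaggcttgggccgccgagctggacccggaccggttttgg
SNHG3 (chr1:28505923-28505982, plus strand): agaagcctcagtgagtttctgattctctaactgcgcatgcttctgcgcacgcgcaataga
SNHG20 (chr17:77088623-77088682, plus strand): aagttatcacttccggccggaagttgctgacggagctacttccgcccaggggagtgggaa
SNHG26 (chr7:22854220-22854279, plus strand): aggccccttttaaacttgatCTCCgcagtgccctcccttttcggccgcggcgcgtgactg

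The motif stood at the listed start in 6 of 23 host windows (26.1%), against 4.07% of all 35116 promoter windows. It stood there in 2.89% of windows of other long noncoding RNAs in the tables and 57.3% of those of cytosolic ribosomal protein genes. Protein-coding genes with a small RNA row inside had it in 23 of 65 windows (35.4%), so the motif is not particular to the hosts. The hosts have 1 window each, while genes of the other groups can have more than 1. The listed RefSeq start need not be the start used in these cells. For GAS5, a classical TOP gene, it lies 163 bases outside the deposited interval, and no motif was found there. The same limit holds for hosts with the motif. Their listed start lies 1259 bases from that of the deposited interval for SNHG12, 464 for ZFAS1, 308 for SNHG32 and 199 for SNHG5. For SNHG4 and SNHG19 the distance is 1 and 0 bases. Among the other 4 hosts shown, it is 1927 bases for SNHG20, 114 for SNHG26, 37 for SNHG3 and 0 for SNHG22. The start listed for SNHG3, 28505943, is also the deposited start of the overlapping gene RCC1. Of the 6 hosts with the motif, 2 were positive (SNHG4 and SNHG12) and 1 negative (SNHG5) in the authors' deposited table on ALKBH5. In the authors' deposited table on RBM33, 2 were positive and 2 negative (SNHG5 and ZFAS1). Of all genes, 30.5% were positive for ALKBH5 and 24.0% for RBM33, and 29.1% and 27.0% negative, in the authors' deposited tables, so nothing is read from counts over 6 hosts. Cytosolic ribosomal protein mRNAs, which share this kind of start, had 80 of 83 genes negative and 0 positive in each of the authors' deposited tables (edgeR F test; 0 were also positive at an unadjusted p under 0.05).

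The host transcripts took both signs in each comparison. For ALKBH5, 13 of 25 were positive (52%), 4 negative (16%) and 8 not called in the authors' deposited table, while 30.5% of all genes were positive, 29.1% negative and 59.6% called either way. For RBM33, 10 of 25 were positive (40%), 5 negative (20%) and 10 not called in the authors' deposited table, against 24.0% positive, 27.0% negative and 51.1% called either way among all genes. Values ran from 4.71 for SNHG22 to -0.98 for SNHG5 in the authors' deposited table on ALKBH5. They ran from 3.98 for SNHG3 to -1.14 for SNHG29 in the authors' deposited table on RBM33. The median host stood at 0.65 for ALKBH5 and 0.21 for RBM33, beside a median over all genes of 0.03 and -0.02 in the authors' deposited tables. The hosts lay lower than other long noncoding RNAs, whose 1646 rows had a median of 1.16 for ALKBH5 and 0.86 for RBM33 by the authors' deposited tables. Set against that level, the sign of the hosts' median turns, to -0.51 and -0.64. Other long noncoding RNAs were positive in 47.9% of rows for ALKBH5 and 35.7% for RBM33 by the authors' deposited tables. Few were negative, 4.50% for ALKBH5 and 4.80% for RBM33 by the authors' deposited tables. Among those of at least median abundance for the table, the negative shares were 16.4% and 22.8%, and their medians 1.501 and 0.96, in the authors' deposited tables. Their positive shares were 67.9% and 59.1%, above the 52.6% and 42.1% of hosts of such abundance, in the authors' deposited tables. A high positive share is thus not particular to the hosts. The hosts are more abundant, with a median average log2 CPM of 5.06 in the authors' deposited table on ALKBH5, compared with 1.604 for other long noncoding RNAs, a scale of reads that is not corrected for length.

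**Figure D1:**
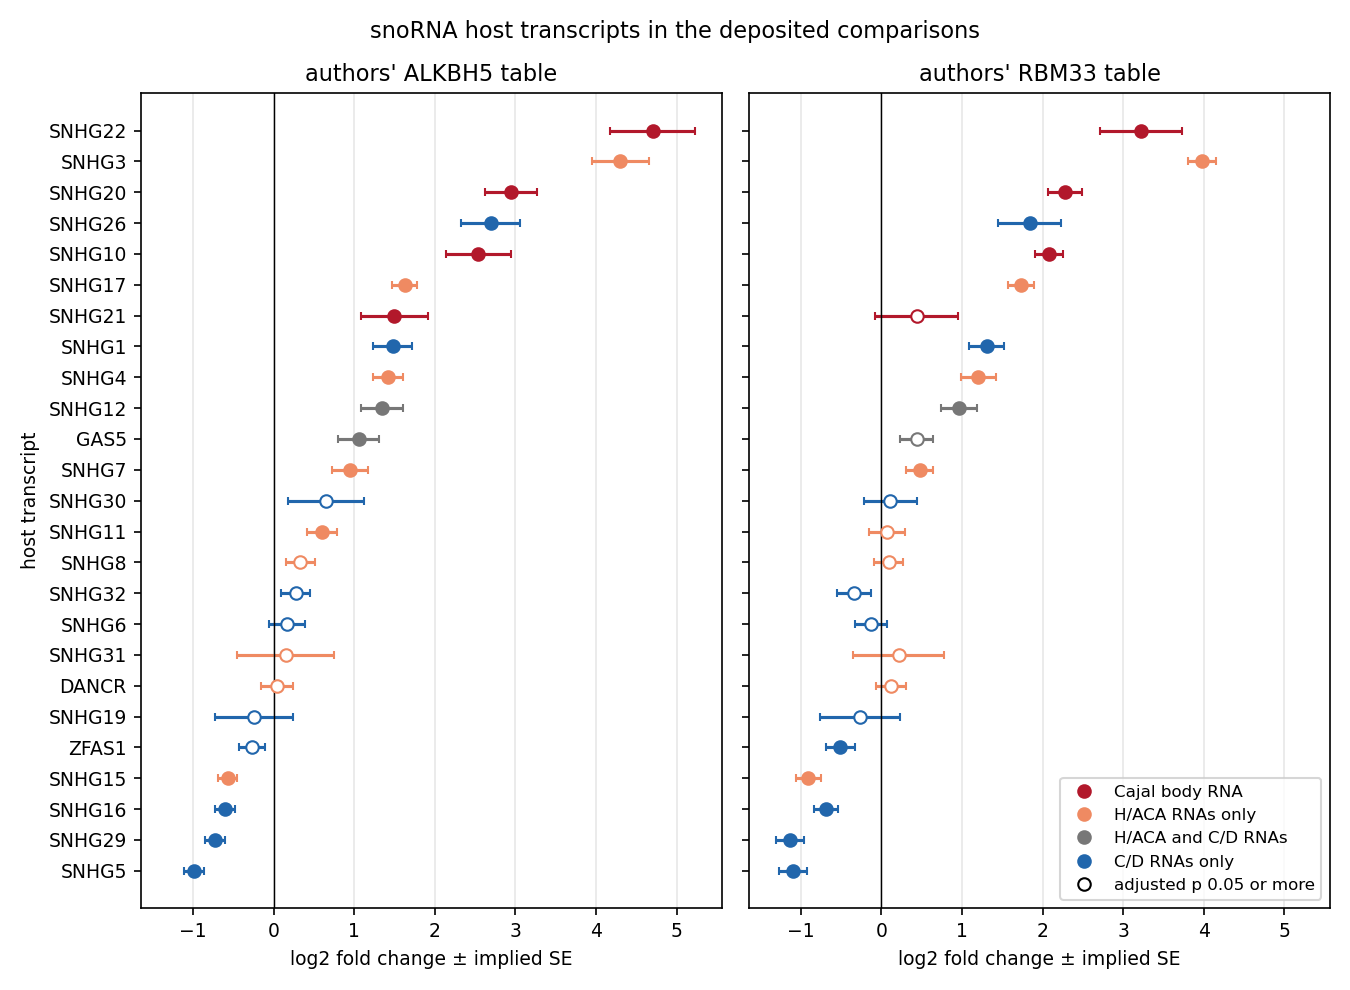
Log2 fold change of the 25 host transcripts (rows) in the authors' deposited tables for ALKBH5 (left) and RBM33 (right). Points are coloured by the guide RNAs that RefSeq places inside the host, bars are the implied standard error, and open points had an adjusted p of 0.05 or more. All 4 Cajal body hosts were positive for ALKBH5 and 3 of them for RBM33, beside 30.5% and 24.0% of all genes. For ALKBH5, 3 of the 4 negative hosts carry C/D RNAs only. The negative share of such hosts, 30%, was near the 29.1% of all genes.

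Protein-coding genes that carry a small nucleolar or Cajal body RNA row lay on the other side. Of 64 such genes, the authors' deposited table on ALKBH5 had 40 negative and 16 positive (median -0.77), and the authors' deposited table on RBM33 39 negative and 15 positive (median -0.79). This group includes ribosomal protein genes and genes that overlap an SNHG gene, so it shares loci with the hosts. No test was made of the differences between these groups.

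**Figure D2:**
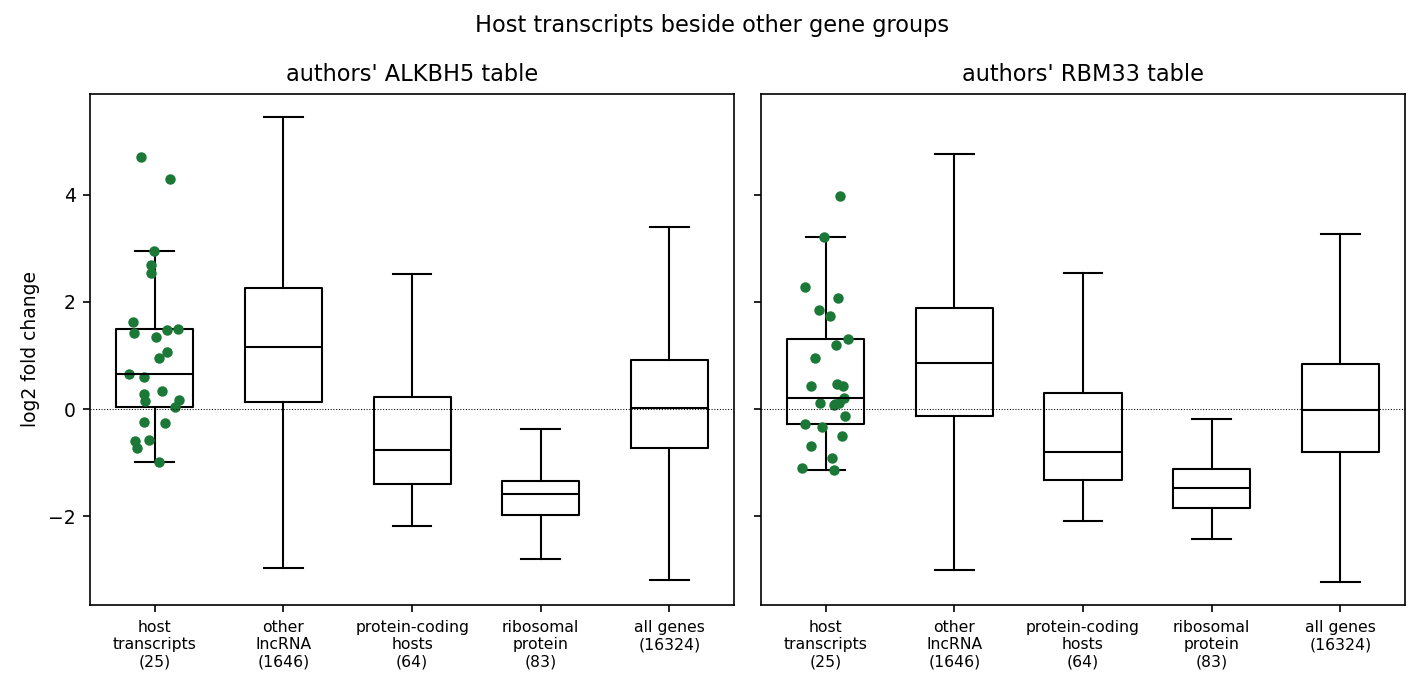
Log2 fold change of the host transcripts (points and box) beside other long noncoding RNA rows, protein-coding genes with a small RNA row inside, cytosolic ribosomal protein mRNAs and all genes, in the authors' deposited tables for ALKBH5 (left) and RBM33 (right). Boxes give the median and quartiles, whiskers reach 1.5 interquartile ranges, and numbers of genes stand in brackets. The host median (0.65 and 0.21) lies between that of other long noncoding RNAs (1.16 and 0.86) and that of protein-coding hosts (-0.77 and -0.79).

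The 4 hosts of Cajal body RNAs were all positive in the ALKBH5 comparison, and 3 were positive for RBM33. The positive shares over all genes were 30.5% and 24.0% in the authors' deposited tables, and nothing is read from counts over 4 hosts. SNHG22 (ENSG00000267322, chromosome 18, 49814023 to 49851059, hg38, plus strand) carries SCARNA17, which RefSeq begins at the same base as the host. It stood at 4.71 ± 0.53 for ALKBH5 (adjusted p = 5.25e-06) and 3.22 ± 0.51 for RBM33 (adjusted p = 0.000324) in the authors' deposited tables. It was sparse, with an average log2 CPM of 2.95 for ALKBH5 and 1.83 for RBM33 by the authors' deposited tables, and SCARNA17 has no row of its own. SNHG20 (chromosome 17, 77086716 to 77099902, plus strand), the host of SCARNA16, stood at 2.95 ± 0.32 for ALKBH5 (adjusted p = 3.96e-05) and 2.28 ± 0.21 for RBM33 (adjusted p = 1.08e-05) in the authors' deposited tables. SNHG10 (chromosome 14, 95521943 to 95534889, minus strand) hosts SCARNA13. It had 2.54 ± 0.40 for ALKBH5 (adjusted p = 0.00157) and 2.08 ± 0.17 for RBM33 (adjusted p = 6.53e-06) in the authors' deposited tables. The lowest of the 4 was SNHG21, the host of SCARNA15, at 1.498 ± 0.42 for ALKBH5 (adjusted p = 0.00705) and 0.43 ± 0.51 for RBM33 (adjusted p = 0.511) in the authors' deposited tables. Together the 4 had a median of 2.75 for ALKBH5 and 2.18 for RBM33 by the authors' deposited tables.

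SNHG20 also holds a microRNA row. MIR6516 overlaps SCARNA16, and stood at 3.99 for ALKBH5 (adjusted p = 1.16e-05) and 2.96 for RBM33 (adjusted p = 3.93e-05) in the authors' deposited tables. SCARNA16 itself had 3.90 and 3.07 in the authors' deposited tables, so the host and both small RNA rows at this locus were positive, and reads of the small RNAs cannot be told apart. The mature sequences are shown because they mark which part of the locus the row covers. They are given from RefSeq (GRCh38.p14, plus strand) with the seed, bases 2 to 8, in capitals.
hsa-miR-6516-5p (chr17:77089428-77089449): uUUGCAGUaacaggugugagca
hsa-miR-6516-3p (chr17:77089469-77089490): aUCAUGUAugauacugcaaaca

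Hosts with H/ACA RNAs only were split. For ALKBH5, 5 of 9 were positive and 1 negative (median 0.60), and for RBM33, 4 were positive and 1 negative (median 0.21), by the authors' deposited tables. Among all genes, 30.5% (ALKBH5) and 24.0% (RBM33) were positive, and 29.1% and 27.0% negative, in the authors' deposited tables. Nothing is read from counts over 9 hosts. SNHG3 (ENSG00000242125, chromosome 1, 28505980 to 28510892, plus strand) is the host of SNORA73A and SNORA73B, the U17 RNAs needed for cleavage of the ribosomal RNA precursor. It reached 4.30 ± 0.35 for ALKBH5 (adjusted p = 6.19e-06) and 3.98 ± 0.17 for RBM33 (adjusted p = 3.79e-07) in the authors' deposited tables. SNHG17 (chromosome 20, 38419638 to 38435409, minus strand), with the SNORA71 cluster, stood at 1.63 ± 0.16 for ALKBH5 (adjusted p = 1.43e-06) and 1.73 ± 0.16 for RBM33 (adjusted p = 9.75e-06) in the authors' deposited tables. SNHG4 (chromosome 5, 139274102 to 139284899, plus strand), the host of SNORA74A, the U19 RNA, had 1.42 ± 0.19 for ALKBH5 (adjusted p = 2.35e-05) and 1.20 ± 0.22 for RBM33 (adjusted p = 0.000807) in the authors' deposited tables. These 3 hosts were positive in each comparison.

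The remaining H/ACA hosts were nearer to 0 or negative. SNHG7, with SNORA17A and SNORA17B, had 0.94 ± 0.22 for ALKBH5 (adjusted p = 0.00296) and 0.47 ± 0.17 for RBM33 (adjusted p = 0.0355) in the authors' deposited tables. SNHG11, on chromosome 20 next to SNHG17 but on the other strand, had 0.60 ± 0.19 for ALKBH5 (adjusted p = 0.0137) and 0.07 ± 0.22 for RBM33 (adjusted p = 0.82) in the authors' deposited tables. SNHG8 and DANCR, each with 1 H/ACA RNA, were not called in either, with 0.33 and 0.05 for ALKBH5 and 0.09 and 0.12 for RBM33 by the authors' deposited tables. For DANCR, a noncoding RNA named for holding back differentiation, the approximate 95% interval from the implied error was -0.38 to 0.47 for ALKBH5 in the authors' deposited table. SNHG31 was too sparse for a narrow estimate, at 0.15 ± 0.60 for ALKBH5 and 0.21 ± 0.57 for RBM33 by the authors' deposited tables. SNHG15 (chromosome 7, 44983023 to 44986961, minus strand), the host of SNORA9, was the negative member, with -0.57 ± 0.12 for ALKBH5 (adjusted p = 0.000795) and -0.91 ± 0.16 for RBM33 (adjusted p = 0.000603) in the authors' deposited tables.

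The hosts of both kinds of guide were moderately positive. SNHG12 (chromosome 1, 28578538 to 28583132, minus strand) carries SNORA16A, SNORA44, SNORA61 and SNORD99. It had 1.34 ± 0.26 for ALKBH5 (adjusted p = 0.00113) and 0.96 ± 0.22 for RBM33 (adjusted p = 0.00372) in the authors' deposited tables. GAS5 (chromosome 1, 173858559 to 173868882, minus strand), known for accumulating in growth-arrested cells when its decay slows, carries 10 C/D RNAs and SNORA103 by RefSeq. It had the highest average log2 CPM of the hosts, 8.20 for ALKBH5 and 8.70 for RBM33 by the authors' deposited tables. It stood at 1.06 ± 0.25 for ALKBH5 (adjusted p = 0.00366) and 0.44 ± 0.20 for RBM33 (adjusted p = 0.0946) in the authors' deposited tables. GAS5 was thus called for ALKBH5 only, but the difference between the comparisons was not tested.

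Hosts with C/D RNAs only took both signs. Of the 10, 2 were positive and 3 negative for ALKBH5 in the authors' deposited table (median -0.04), and 4 were negative and 2 positive in the authors' deposited table on RBM33 (median -0.31). For ALKBH5 the negative share, 30%, was near the 29.1% of all genes in the authors' deposited table, and for RBM33 it was 40%, beside 27.0%. The positive share was 20% in each, beside 30.5% and 24.0% of all genes in the authors' deposited tables. The positive members were SNHG26 and SNHG1. SNHG26 (chromosome 7, 22854126 to 22872945, plus strand), with SNORD93, had 2.69 ± 0.36 for ALKBH5 (adjusted p = 2.59e-05) and 1.84 ± 0.39 for RBM33 (adjusted p = 0.00216) in the authors' deposited tables. SNHG1 (chromosome 11, 62851984 to 62855953, minus strand), with 8 C/D RNAs from SNORD22 to SNORD31, had 1.48 ± 0.24 for ALKBH5 (adjusted p = 0.000345) and 1.30 ± 0.21 for RBM33 (adjusted p = 0.00039) in the authors' deposited tables.

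The negative C/D hosts are abundant transcripts, but so is the positive SNHG1. For ALKBH5, SNHG5, SNHG16 and SNHG29 had an average log2 CPM of 5.67, 6.32 and 7.25 in the authors' deposited table. The positive SNHG1 and SNHG26 had 7.08 and 2.85 there. SNHG5 (chromosome 6, 85650491 to 85678932, minus strand), the U50 host gene, had -0.98 ± 0.12 for ALKBH5 (adjusted p = 1.56e-05) and -1.09 ± 0.17 for RBM33 (adjusted p = 0.000331) in the authors' deposited tables. SNHG29 (chromosome 17, 16438767 to 16478678, plus strand), with SNORD49A, SNORD49B and SNORD65, had -0.73 ± 0.12 for ALKBH5 (adjusted p = 0.000186) and -1.14 ± 0.17 for RBM33 (adjusted p = 0.000234) in the authors' deposited tables. SNHG16, the host of SNORD1A to SNORD1C, had -0.60 ± 0.12 for ALKBH5 (adjusted p = 0.000785) and -0.69 ± 0.14 for RBM33 (adjusted p = 0.00209) in the authors' deposited tables. These 3 were negative in each comparison. ZFAS1, the antisense neighbour of ZNFX1 and host of the SNORD12 family, was not called for ALKBH5 at -0.27 ± 0.16 (adjusted p = 0.166) and was negative for RBM33 at -0.51 ± 0.18 (adjusted p = 0.0367) in the authors' deposited tables. SNHG6, SNHG19, SNHG30 and SNHG32 were called in neither, with values from -0.24 to 0.65 for ALKBH5 and from -0.34 to 0.11 for RBM33 by the authors' deposited tables.

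The small nucleolar and Cajal body RNA rows listed inside the hosts all stood above their hosts. Most of the 20 H/ACA, 36 C/D and 4 Cajal body RNAs that RefSeq places there have no row and could not be compared. A short RNA may be listed only because it was high in some libraries, so these counts cover listed rows alone. The tables list 20 small nucleolar or Cajal body RNA rows whole inside 13 of the hosts and on their strand. SNORA17B has a pair of rows, 136726104 to 136726239 and 136726105 to 136726234 on chromosome 9, with the same values in the authors' deposited tables, and they count here as 1 of 19 measurements. Of the 19, 18 were positive in each of the authors' deposited tables, with medians of 4.26 for ALKBH5 and 4.82 for RBM33. The count is close to that of all 103 small nucleolar and Cajal body RNA rows, of which 95.1% were positive for ALKBH5 (median 4.05) and 92.2% for RBM33 (median 3.90), in the authors' deposited tables. The row that was not called was SNORD49B in SNHG29, at 0.82 for ALKBH5 (adjusted p = 0.171) and 0.36 for RBM33 (adjusted p = 0.618) in the authors' deposited tables. All 19 were higher than their host, by a median of 2.75 log2 units for ALKBH5 and 3.17 for RBM33 by the authors' deposited tables. The gap was smallest for SCARNA16 in SNHG20, 0.95 for ALKBH5 and 0.79 for RBM33 from the authors' deposited tables. It was largest for SNORA17B in SNHG7 for ALKBH5 (4.86) and for SNORD87 in SNHG6 for RBM33 (5.20) in the authors' deposited tables. These rows share libraries with the hosts, and no test was made of the gap.

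**Figure D3:**
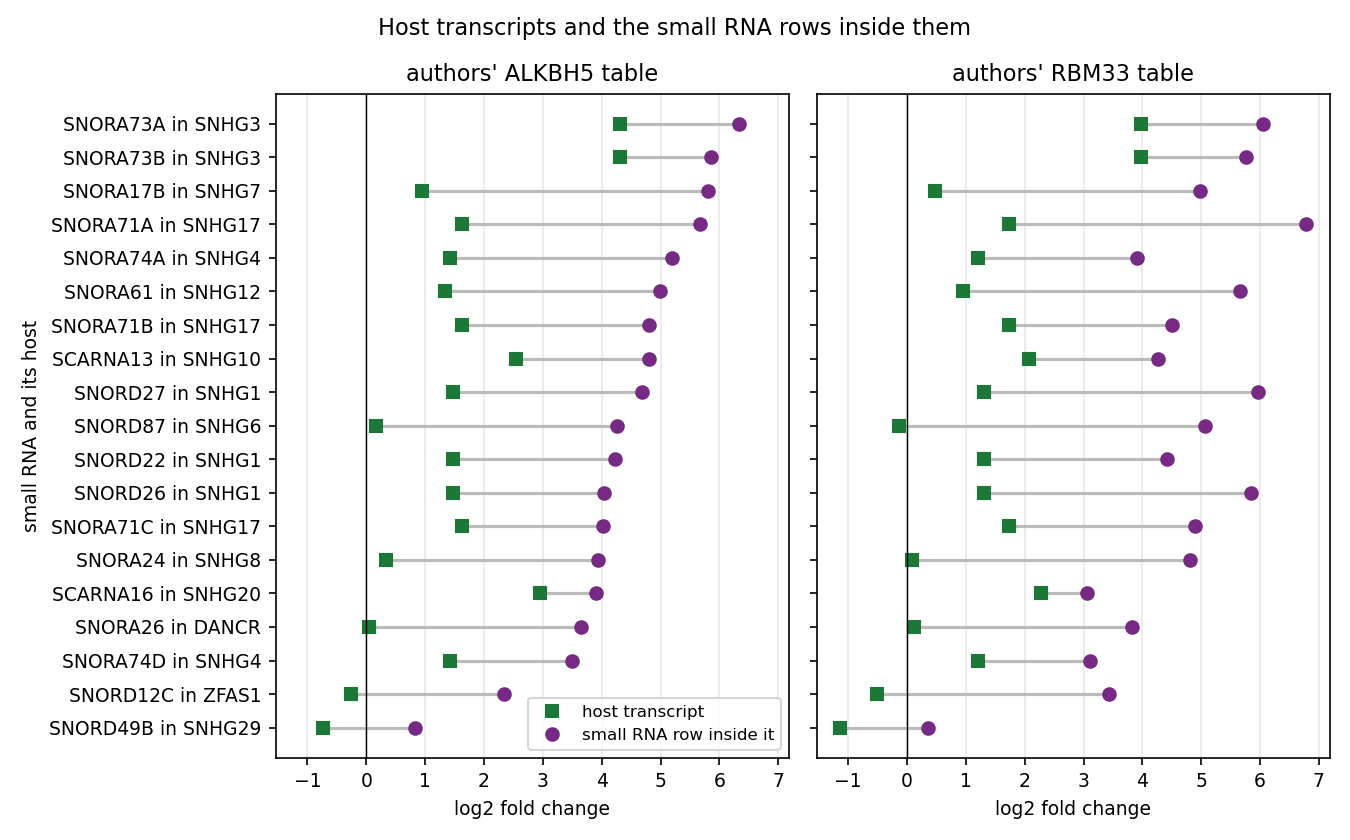
Log2 fold change of each small RNA row (circles) and of the host it lies in (squares) in the authors' deposited tables for ALKBH5 (left) and RBM33 (right), with a line joining each pair. Every circle lies to the right of its square, and the median gap is 2.75 log2 units for ALKBH5 and 3.17 for RBM33.

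A small RNA could be positive while its host was not. SNORD12C stood at 2.35 for ALKBH5 (adjusted p = 0.00535) and 3.44 for RBM33 (adjusted p = 0.00462) in the authors' deposited tables, although its host ZFAS1 was below 0 in each. SNORD87 had 4.26 and 5.07, beside 0.17 and -0.13 for its host SNHG6 in the authors' deposited tables. SNORA26 in DANCR, at 3.66 and 3.83, and SNORA24 in SNHG8, at 3.93 and 4.82 in the authors' deposited tables, likewise lay inside hosts that were not called.

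Reads of the small RNAs may also be counted for the host. The listed length equals the whole span of SNHG1, SNHG8 and SNHG15, so their guides lie inside sequence counted for the host. In the other hosts the listed length covered 1.66% (SNHG31) to 98.4% (SNHG11) of the span, and the tables do not say whether a guide lies within it. The reads of the small RNA rows, as average CPM not corrected for length, were set against those of the host. They came to 304% of the host's for SNHG3, 186% for SNHG4, 73.7% for SNHG20 and 53.8% for SNHG10, but to 1.96% for SNHG29 and 8.66% for ZFAS1 in the authors' deposited table on ALKBH5. Where the share is above 100%, some of the small RNA's reads cannot have been counted for the host. Across the 13 hosts with such rows, this share went with the log2 fold change of the host, at a Spearman rank correlation of 0.81 for ALKBH5 and 0.85 for RBM33 by the authors' deposited tables. The points come from the same libraries, and a share built on average abundance contains the small RNA's own change, so the figure is a description. With the 12 hosts without a row set at a share of 0, the rank correlation over all 25 hosts was 0.40 and 0.51 in the authors' deposited tables. The rank correlation of the host's value with listed length was -0.13 and -0.03, and with average abundance 0.05 and -0.08 over all 25 hosts in the authors' deposited tables. The part of the small RNAs' reads in the hosts' values was not tested.

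**Figure D4:**
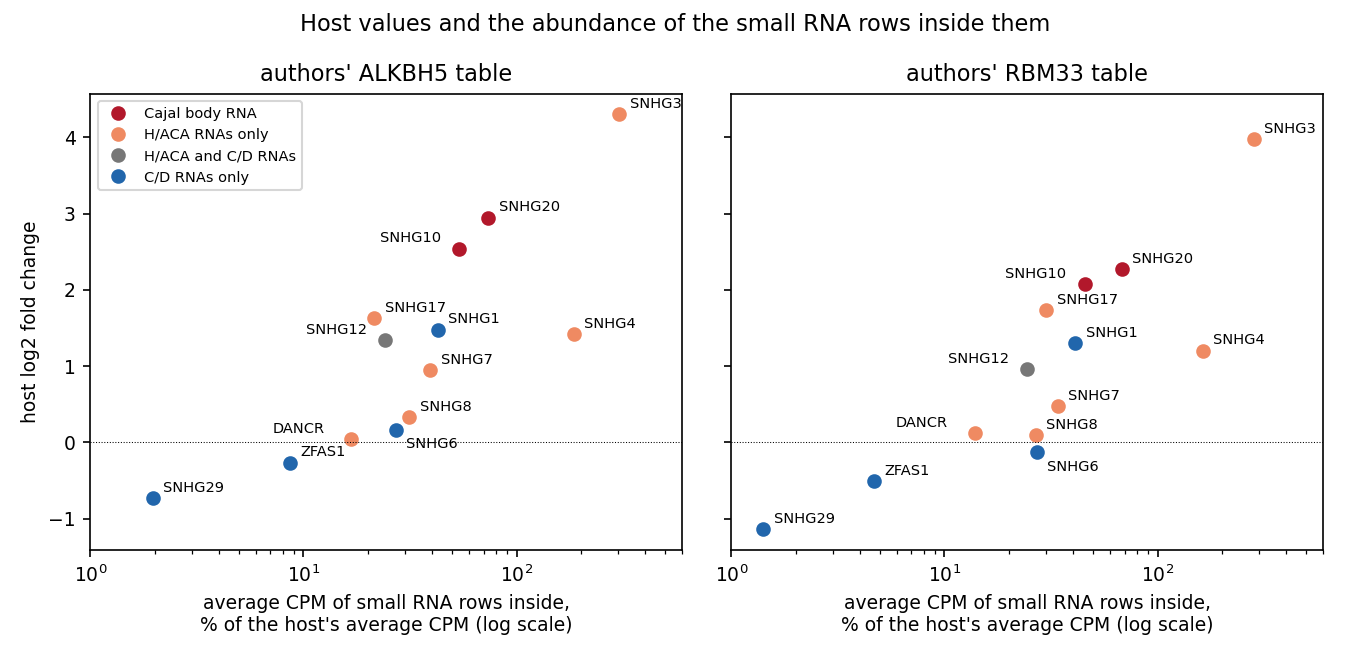
Log2 fold change of the 13 hosts with a small RNA row inside (vertical) against the summed average CPM of those rows as a percentage of the host's (horizontal, log scale), in the authors' deposited tables for ALKBH5 (left) and RBM33 (right). SNHG29 (1.96% for ALKBH5) and SNHG3 (304%) mark the low and high ends, and the Spearman rank correlation is 0.81 and 0.85.

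Hosts with a listed small RNA row and hosts without one can be set side by side. The 13 with a row had 8 positive and 1 negative member for ALKBH5 (median 1.34), and the 12 without had 5 and 3 (median 0.44) in the authors' deposited table. In the authors' deposited table on RBM33, the 13 had 8 positive and 2 negative members (median 0.96) and the 12 had 2 and 3 (median 0.09). The shares over all genes were 30.5% (ALKBH5) and 24.0% (RBM33) positive, and 29.1% and 27.0% negative, in the authors' deposited tables. For RBM33 the 12 hosts without a row had 16.7% positive and 25% negative. Both groups are small, and no test was made of the difference. SNHG22 and SNHG26 were positive for each bait with no small RNA row listed inside them, but RefSeq places SCARNA17 and SNORD93 there. A missing row does not show that reads of a small RNA are missing from the host's count.

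Other listed genes overlap 16 of the 25 hosts. RCC1, a nucleotide exchange factor for the GTPase Ran, surrounds SNHG3 on the same strand, and had -0.52 for ALKBH5 (adjusted p = 0.00282) and -0.66 for RBM33 (adjusted p = 0.0037) in the authors' deposited tables. MATR3, a nuclear matrix protein gene listed under more than 1 identifier, overlaps SNHG4 on its strand at -1.16 for ALKBH5 and -1.07 for RBM33 by the authors' deposited tables. On the opposite strand, GLRX5 overlaps SNHG10 and had -1.45 for ALKBH5 and -1.03 for RBM33 by the authors' deposited tables. These 3 neighbours were negative while the hosts beside them were positive, but other neighbours shared their host's sign. ZBTB37, opposite GAS5, was positive at 1.54 for ALKBH5 (adjusted p = 8.07e-06) and 1.53 for RBM33 (adjusted p = 4.16e-05), in the authors' deposited tables. DIPK1B, opposite SNHG7, had 0.63 for ALKBH5 (adjusted p = 0.00122) and 0.26 for RBM33 (adjusted p = 0.266), in the authors' deposited tables. For ZFAS1 the pattern ran the other way, since ZNFX1 on the opposite strand was positive at 1.39 for each bait in the authors' deposited tables. Inside ZFAS1, the unnamed short RNA rows AL049766.3 and AL049766.1 had -2.14 and -1.52 for ALKBH5 and -1.97 and -1.64 for RBM33 by the authors' deposited tables. Over SNHG21, the long noncoding row AC105339.2 on the same strand was positive at 2.05 for ALKBH5 and 1.84 for RBM33 by the authors' deposited tables. Among the 9 hosts that overlap no such gene, 3 were negative and 4 positive for ALKBH5 (median 0.17), and for RBM33 3 of each (median -0.13), in the authors' deposited tables. The shares over all genes are those given above, and nothing is read from counts over 9 hosts.

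Side by side, the ALKBH5 value was the larger for 22 of 25 hosts. The median difference, ALKBH5 minus RBM33, was 0.34 log2 units, with a range from -0.10 (SNHG17) to 1.49 (SNHG22) in the authors' deposited tables. Other long noncoding RNAs differed by about as much, with a median of 0.36 and 68.2% larger for ALKBH5 in the authors' deposited tables, and all genes by 0.06. The difference exceeded 2 combined implied errors for 2 hosts, SNHG22 and SNHG32, while 9.495% of all genes in the authors' deposited tables did so. For SNHG32 the values were 0.28 ± 0.18 for ALKBH5 and -0.34 ± 0.21 for RBM33 by the authors' deposited tables, each not called. These combined errors take the comparisons as independent, which is not stated, so the differences are descriptions.

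The proteins that bind and build the small ribonucleoproteins had mostly negative mRNAs. All 4 core proteins of C/D particles and all 4 of H/ACA particles were negative in each of the authors' deposited tables (edgeR F test; 0 were positive at an unadjusted p under 0.05). NOP58, a C/D scaffold protein, had -1.70 for ALKBH5 and -1.64 for RBM33 by the authors' deposited tables, the methyltransferase FBL -1.52 and -1.15, and SNU13, which binds the guide RNA, -1.21 and -1.24. DKC1, the pseudouridine synthase, had -2.03 and -1.75, and its partner NHP2 -1.96 and -2.23 in the authors' deposited tables. Of 12 assembly factors, 9 were negative and 0 positive in each of the authors' deposited tables (edgeR F test; 0 positive at an unadjusted p under 0.05). Among these were RUVBL1, an AAA+ ATPase, at -1.39 and -1.41 and its cofactor RPAP3 at -1.34 and -1.44 in the authors' deposited tables. The medians of these lists were -1.37 (C/D), -1.61 (H/ACA) and -0.87 (assembly) for ALKBH5, and -1.19, -1.54 and -0.76 for RBM33, by the authors' deposited tables. Beside these counts, 29.1% (ALKBH5) and 27.0% (RBM33) of all genes were negative by the authors' deposited tables. Cytosolic ribosomal protein mRNAs had 80 of 83 negative in each. A high negative share is thus not particular to these lists, and the part played by abundance was not tested.

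Factors that act on the spliced hosts or on the introns had both signs. Nonsense-mediated decay factors had, of 17 members, 9 negative and 5 positive ones for ALKBH5, and 7 and 5 for RBM33, by the authors' deposited tables. The endonuclease SMG6 had 1.46 for ALKBH5 and 1.26 for RBM33, the helicase DHX34 1.00 and 0.89, and the kinase SMG1 0.99 and 1.33, in the authors' deposited tables. MAGOH, a subunit of the exon junction complex, stood at the other end with -2.17 and -2.52, beside its paralog MAGOHB at -1.04 and -1.85 and their partner RBM8A at -1.46 and -0.96 in the authors' deposited tables. Among 7 genes of TOP translation control, 3 were negative and 2 positive for ALKBH5, and for RBM33 3 of each, by the authors' deposited tables. RPTOR, a subunit of mTOR complex 1, had 1.53 and 1.20, and the kinase MTOR 0.54 and 0.93, in the authors' deposited tables. EIF4EBP1, an inhibitor of cap-dependent translation, had -1.69 and -1.99, and the nucleic acid-binding protein CNBP -1.44 and -1.67, in the authors' deposited tables. Of 6 genes of debranching and RNA turnover, 2 were negative and 1 positive in each of the authors' deposited tables. The exonuclease XRN1 of the cytoplasm had 0.79 and 1.14, its nuclear counterpart XRN2 -0.65 and -0.81, and the RNA helicase MTREX -0.40 and -0.39, in the authors' deposited tables. Some of these counts lie near the shares over all genes, given above, and others do not. Negative decay factors, 9 of 17 in the ALKBH5 comparison, stand beside 29.1% of all genes by the authors' deposited table. The lists are short and were not tested against all genes, so nothing is read from the counts. The medians of these 3 lists lay between -0.47 and 0.00 for ALKBH5 and between -0.30 and -0.12 for RBM33 by the authors' deposited tables.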

How the data were processed

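RNA from pull-downs and inputs of the 3 cell lines was sequenced by the authors as stranded total RNA libraries, per the labels' protocols. Reads were handled with edgeR 3.24.3, Subread 1.6.4 with featureCounts, HISAT2 2.1.0 and cutadapt 1.18 on build hg38, per the submitters' processing notes. Which annotation release, filters, strand setting and contrast the authors chose is not given in the sources used here. Per the file headers, the authors deposited a log2 fold change and average log2 CPM, an F statistic (a score without fixed range), and a p-value with its adjusted p-value for each of 16324 genes. The Benjamini-Hochberg adjustment recomputed over all genes gave the deposited values to within 1.2e-15.

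Python 3.11.15 with pandas 2.3.3 and scipy 1.17.1 computed the rest: counts of calls at an adjusted p-value under 0.05, medians, implied standard errors, intervals from the degrees of freedom that F and p give, and interval overlaps. Of these steps, only the implied standard errors, the implied degrees of freedom and the search for rows inside a host were tested, on made values with known answers. Small RNAs and promoters came from RefSeq. The count model over libraries is not possible with these files. Named genes were all hosts, rows inside or over them, and the called members of each pathway list with the largest values. Members and lists were chosen with earlier results of these data known. A marker of the cell type check is not reported here.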

Additional observations from a re-analysis of the deposited data

How the results depend on the processing

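No paired analysis was possible because the files hold no values per library, and for the same reason no replicate could be left out. For ALKBH5, 13 of 25 hosts were positive (52%). Among hosts with a small RNA row inside it was 8 of 13, a higher share (61.5%). Among hosts with none, an alternative chosen after seeing the data, it was 5 of 12 (41.7%). Among hosts that overlap no other gene, 4 of 9 were positive. The 10 of 25 positive for RBM33 became 2 of 12 with no row inside and 3 of 9 without overlaps. These subsets hold fewer hosts. With at least 1 log2 unit, 0 hosts were negative for ALKBH5 and 2 for RBM33. Among hosts with a row inside, 1 and 2 were negative, and for RBM33 3 were negative without overlaps and 3 with no row inside. The median moved to 1.34 (ALKBH5) and 0.96 (RBM33) with a row inside, and to 0.17 for ALKBH5 without overlaps. It turned to -0.13 for RBM33 without overlaps, and to -0.51 and -0.64 relative to the median of long noncoding RNA rows. The gap of small RNA and host for RBM33 was 2.71 among rows of at least median abundance. Thresholds of 0.01, SNHG symbols only, at least median abundance and centring on all genes kept the direction of each median they apply to and every count of hosts within 1.5 times. Depth is unknown.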

Other observations

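The total degrees of freedom implied by F and p were the same, 11.2, for all 25 hosts in the authors' deposited table on RBM33. In the authors' deposited table on ALKBH5 they were 13.2 for 17 hosts and lower for 8. SNHG10 had the lowest, 6.41, followed by SNHG3 at 8.85 and SNHG20 at 9.01, which were among the 5 hosts with the largest values in the authors' deposited table on ALKBH5. RefSeq also places MIR4449 inside DANCR, but no row of that name lies inside DANCR in the authors' deposited tables.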
